A study of Homo sapiens with 2 samples.

Results

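The BCL2 family decides whether a cell under stress opens its mitochondrial outer membrane and dies. Anti-apoptotic members (BCL2, BCL2L1, MCL1 and BCL2A1) hold the pore-forming effectors such as BAK1 in check, and BH3-only members (BCL2L11, BID, BAD, BIK and BMF) bind and neutralise the guardians or activate the effectors. In mast cells, stem cell factor acting through KIT is known to keep the BH3-only protein BIM, encoded by BCL2L11, low, and BCL2A1 is known as a survival gene induced when IgE receptors are crosslinked. These 10 genes were taken by name, and all probe sets annotated to them under current or former symbols were read, which gave 31 of the 54675 probe sets and 10 of 19775 genes.

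Values came from 2 Affymetrix U133 Plus 2.0 arrays, 1 for the CD2-positive and 1 for the CD2-negative subclone of HMC1. HMC1 is a human line from mast cell leukaemia that is known to carry activating KIT mutation, and both subclones share that origin. The subclones had been separated by sorting with an antibody to CD2, an adhesion receptor of lymphocytes that neoplastic mast cells can display, and no treatment is named for either. With 1 array per subclone no value has a replicate check, so sizes are given with no p-value. Each value is an intensity on a linear scale, each difference is the log2 value of CD2-positive minus that of CD2-negative cells, and intensities of different probe sets are not set against each other.

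Summed intensity was 1860969 for CD2-positive and 1875750 for CD2-negative cells. CD2 itself read 219 in CD2-positive and 13 in CD2-negative cells. Of 9 mast cell markers found, 7 reached the floor of 64 used for comparing genes. Among them, KIT read 1373 in CD2-positive and 1328 in CD2-negative cells, TPSAB1 4806 in CD2-positive and 3142 in CD2-negative cells, HDC 1715 in CD2-positive and 1219 in CD2-negative cells, and CPA3 1220 in CD2-positive and 207 in CD2-negative cells. The chymase gene CMA1 read 2 on both arrays. Each of 4 marker lists of other blood cells (T and NK cells, B cells, monocytes and macrophages, neutrophils) summed to between 11 and 24 in CD2-positive and between 11 and 25 in CD2-negative cells, with no marker at the floor. Probe sets for Bacillus genes, with no target in human RNA, spanned 1 to 4 on each array and mark the background. All 18 hybridisation control probe sets were lower in CD2-positive cells (median difference -0.18), and centring on these controls moves the median of the 3564 genes compared from -0.05 to 0.14.

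Among the BCL2 family, BCL2A1 read higher in CD2-positive cells than in CD2-negative ones, where it lay at background. The brightest probe sets of the other 9 members had differences between -0.38 (BAK1) and 0.26 (BCL2), with MCL1 at -0.36 and BIK at -0.32. The promoter of BCL2A1 is shown because this gene has the largest difference of the members. It is the 250 bases before the annotated start, from RefSeq on GRCh38.p14, chr15:79971197-79971446 on the minus strand, and capitals mark matches to the motifs searched.

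BCL2A1: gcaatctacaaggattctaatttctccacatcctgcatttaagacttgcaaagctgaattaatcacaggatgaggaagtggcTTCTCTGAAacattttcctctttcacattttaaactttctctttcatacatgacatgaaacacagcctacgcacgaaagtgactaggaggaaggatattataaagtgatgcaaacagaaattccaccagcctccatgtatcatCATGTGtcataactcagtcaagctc

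The motifs, searched on both strands, were the E-boxes CATGTG and CACGTG, the STAT motif TTCNNNGAA, the AP-1 motif TGANTCA, the cyclic AMP response element TGACGTCA, the GATA motif AGATAA and the NF-kB consensus. The BCL2A1 promoter held 1 CATGTG beginning 25 bases before the start and 1 STAT match beginning 168 bases before it, and these matches do not overlap. Of 35116 promoters of this length, 9.42% held CATGTG and 6.57% held the STAT motif. The other 5 motifs had no match in this window. Promoter entries were found for 8 of the 10 members. Among the other 7 of these, the single match to any motif was an NF-kB match in BMF, a motif held by 5.21% of all promoters.

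BCL2A1, which encodes the anti-apoptotic protein A1 or BFL1, read 20 in CD2-positive and 3 in CD2-negative cells on its only probe set, 205681_at. The CD2-negative value lies within the Bacillus range, so only a lower bound against the top of that range can be given. The deposited values are whole numbers, so each stands for a span of 0.5 units to either side. With both the CD2-positive value and the top of the Bacillus range moved to the unfavourable end of that span, BCL2A1 was at least 4.33-fold higher in CD2-positive cells. Both values lie under the floor of 64, so the gene takes no part in the comparison of genes above it. Among 4618 genes whose higher array lay from 16 to under 64, 1.28% were at least 2-fold higher in CD2-positive cells and 1.13% at least 2-fold lower. BCL2A1 falls in this range through its CD2-positive value alone. A single probe set cannot show whether other parts of the transcript differ likewise. In these bulk samples a change in the number of cells that make a transcript cannot be told apart from a change in the amount per cell.

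MCL1, a short-lived guardian that binds BIM, NOXA and BAK, was measured by 6 probe sets. Its brightest, 200797_s_at, read 387 in CD2-positive and 495 in CD2-negative cells, a log2 difference of -0.36. The next, 200798_x_at, read 333 in CD2-positive and 416 in CD2-negative cells, a difference of -0.32. The third above the floor, 200796_s_at, had 75 in CD2-positive and 71 in CD2-negative cells, a difference of 0.08, so the probe sets above the floor did not all fall on one side. Below it, 214056_at had 34 in CD2-positive and 41 in CD2-negative cells, 214057_at had 12 in CD2-positive and 14 in CD2-negative cells, and 227175_at had 3 on each array. Of the 5 MCL1 probe sets above the Bacillus level, 4 were lower in CD2-positive cells and 1 was higher. The spread between the 2 brightest probe sets of a gene, taken over 937 genes, has a standard deviation of 0.13 per probe set, and it covers probe behaviour alone. A difference at least as large as that of MCL1 in either direction was seen in 23.5% of the genes compared, and centring on the hybridisation controls leaves -0.17.

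BCL2L1, which encodes the guardian BCL-XL, was measured by 4 probe sets. The brightest, 212312_at, read 85 in CD2-positive and 91 in CD2-negative cells, a difference of -0.10, which centring on the hybridisation controls turns to 0.08. The other BCL2L1 probe sets had 29, 21 and 11 in CD2-positive cells, against 28, 25 and 11 in CD2-negative cells. They fall on both sides of 0, between -0.25 and 0.05. BCL2, the founding anti-apoptotic member, read 12 in CD2-positive and 10 in CD2-negative cells on 203685_at and 8 on both arrays on 207005_s_at. Its other 2 probe sets each had 4 in CD2-positive and 3 in CD2-negative cells, within the Bacillus range. BCL2 signal lay near the background on all of its probe sets, and 1 unit of rounding is a large part of each difference there.

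**Figure D1:**
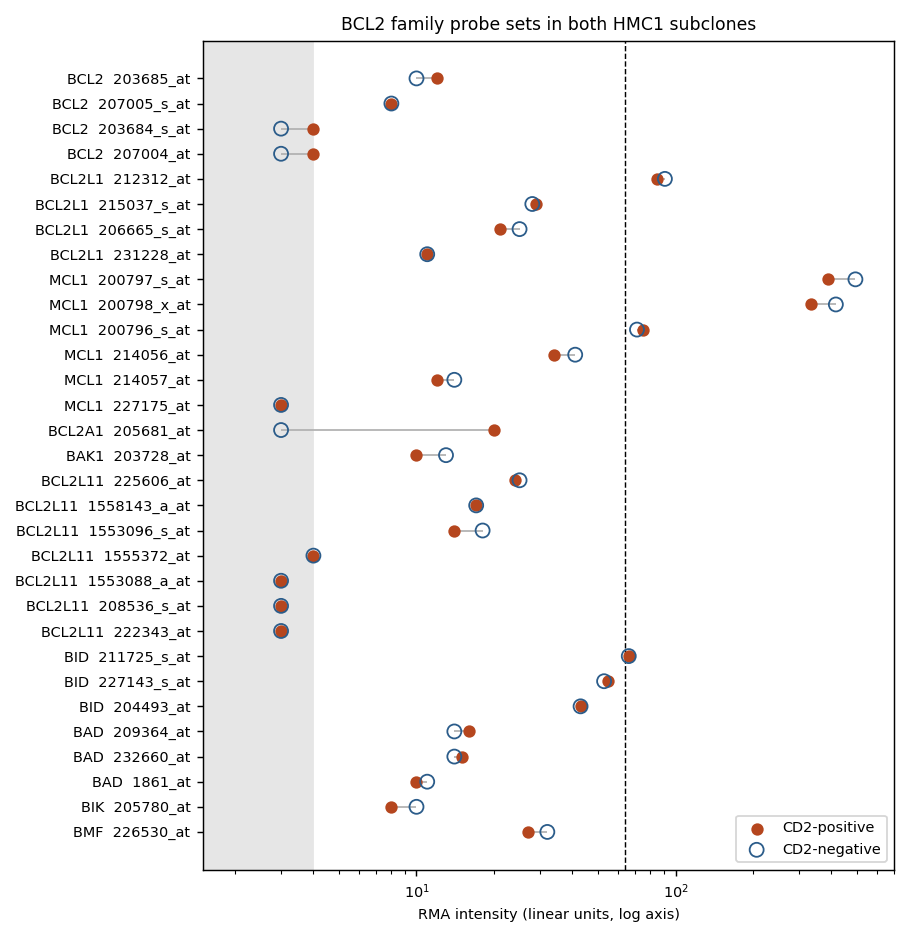
Intensity of each of the 31 BCL2 family probe sets in CD2-positive (filled) and CD2-negative (open) cells, 1 array each, on a log axis. The grey band covers the Bacillus range up to 4 and the dashed line the floor of 64. BCL2A1 (20 in CD2-positive, 3 in CD2-negative cells) has the longest line, and 5 probe sets, of MCL1, BCL2L1 and BID, reach the floor.

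BAK1, the effector that resides in the mitochondrial membrane and oligomerises when freed, read 10 in CD2-positive and 13 in CD2-negative cells, a difference of -0.38 on its only probe set. The rounding span of this difference runs from -0.51 to -0.25, and centring on the hybridisation controls leaves -0.20. The other main effector gene, BAX, had 73 in CD2-positive and 76 in CD2-negative cells on its brighter probe set (-0.06), which centring on the hybridisation controls turns to 0.12. Its other probe set had 62 in CD2-positive and 68 in CD2-negative cells (-0.13).

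Of the BH3-only members, BID, the substrate through which caspase-8 links death receptors to mitochondria, was the one above the floor. It read 66 on both arrays on 211725_s_at, 55 in CD2-positive and 53 in CD2-negative cells on 227143_s_at, and 43 on both arrays on 204493_at. The 3 probe sets gave differences from 0.00 to 0.05, and centring on the hybridisation controls moves the first to 0.18. BCL2L11, the BIM gene, had 7 probe sets, of which 4 were at 3 or 4 on both arrays. Its other 3 had 24, 17 and 14 in CD2-positive cells, against 25, 17 and 18 in CD2-negative cells. The last of these, 1553096_s_at, had a difference of -0.36, while the brightest had -0.06, which centring on the hybridisation controls turns to 0.12.

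BMF, a BH3-only protein known to bind a light chain shared by dynein and myosin motors, read 27 in CD2-positive and 32 in CD2-negative cells, a difference of -0.25. BIK, a BH3-only protein of the endoplasmic reticulum, read 8 in CD2-positive and 10 in CD2-negative cells, a difference of -0.32. Both genes were below the floor on a single probe set, and with the controls as centre the differences are -0.06 for BMF and -0.14 for BIK. BAD, a protein that survival kinases phosphorylate and 14-3-3 proteins then hold away from mitochondria, had 16, 15 and 10 in CD2-positive cells on its 3 probe sets, against 14, 14 and 11 in CD2-negative cells. The differences of BAD ran from -0.14 to 0.19, on both sides of 0.

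Counted over the family, 3 of the 10 members reached the floor (MCL1, BCL2L1 and BID). Of these 3, 0 were past 2-fold in either direction, against 1.96% of the 3564 genes compared. At 1.5-fold the count was also 0, against 4.29% of genes higher and 3.82% lower in CD2-positive cells. With the floor at 16, which was added after the values were seen, 7 members were compared. Of these 1, BCL2A1, was past 2-fold on the higher side, against 1.25% of genes higher and 0.966% lower. BCL2A1 reaches that floor on the CD2-positive array alone (20 in CD2-positive, 3 in CD2-negative cells), so this count adds no support for its difference. The median of the 3 members was -0.10, or 0.08 with the hybridisation controls as centre, against -0.05 for all genes compared. The middle 95% of compared genes spanned -0.68 to 0.70, and all 3 members lie inside it.

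By probe set, 7 of the 31 were within the Bacillus range on both arrays. Among the other 24, 7 were higher in CD2-positive cells, 12 were lower and 5 were equal, with a median of -0.03, but with the hybridisation controls as centre 15 were higher and 9 lower. Over all 24647 probe sets above the Bacillus level on at least 1 array, the uncentred median was 0. Without centring, the 12 anti-apoptotic probe sets split into 4 higher, 6 lower and 2 equal. Of the 6 lower ones, 4 were of MCL1 and 2 of BCL2L1, while the 4 higher ones were 1 each of BCL2, BCL2L1, MCL1 and BCL2A1. The 11 BH3-only ones split into 3 higher, 5 lower and 3 equal. For 15 of the 24 the rounding span did not include 0. That span narrows as intensity rises and holds no variation between arrays or cultures. Its share over all probe sets was not computed, so the count does not mark real differences. The probe set of BCL2A1 was the 1 past 2-fold on the higher side and 0 were past it on the lower side, against 1.26% and 1.01% of the 24647 probe sets above the Bacillus level on at least 1 array. BCL2A1 clears that level on the CD2-positive array alone.

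**Figure D2:**
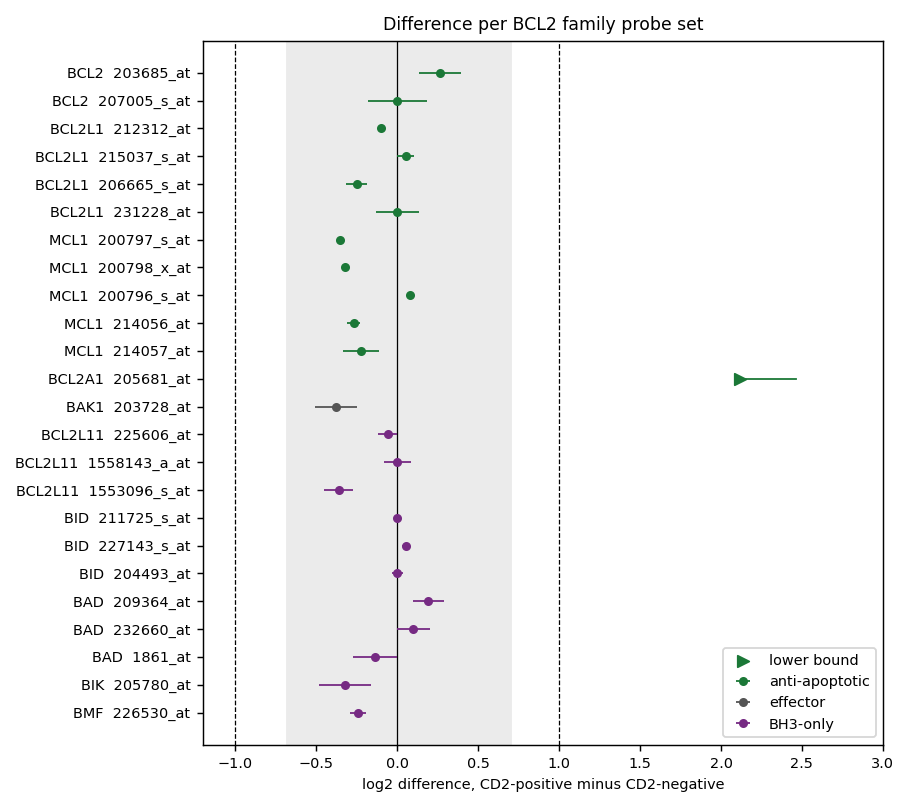
Log2 difference, CD2-positive minus CD2-negative, of the 24 BCL2 family probe sets above the Bacillus level, coloured by role. Bars show the rounding span, which holds no variation between cultures, and the grey band the middle 95% of compared genes, with dashed lines at 2-fold. BCL2A1 is drawn as an open-ended lower bound at 2.12, outside the band, and all others lie inside it.

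In several chromosome segments most compared genes were shifted to the same side, so each member was set beside up to 10 compared genes on each side of it. Neighbour values here and below are not centred on the hybridisation controls. Such centring would raise each median by 0.18 and can change the counts of signs. MCL1 lies on chromosome 1, and its 20 neighbours had a median of -0.25, with 18 negative. BCL2 lies on chromosome 18, and its 18 neighbours had a median of -0.41, with 15 negative, while its own brightest probe set had 0.26. The neighbours of BCL2A1 on chromosome 15 had a median of 0.01, with 10 positive and 9 negative. Medians around the other 7 members lay between -0.06 and 0.06. Whether the shift of its segment has a part in the value of MCL1 was not tested. The effector gene BAX lies on chromosome 19, and its neighbours had a median of 0.15, with 12 positive and 8 negative.

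**Figure D3:**
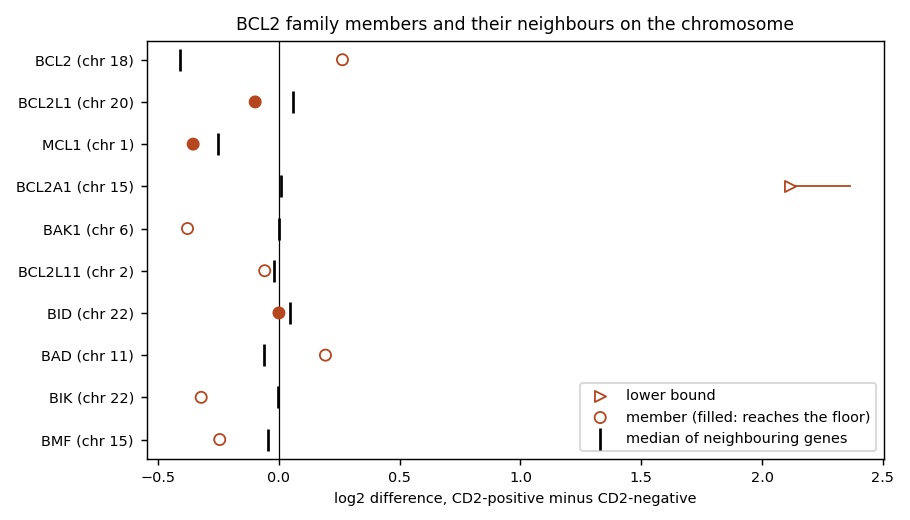
Log2 difference, CD2-positive minus CD2-negative, of each member's brightest probe set (circles, filled where it reaches the floor) and the median of its neighbouring compared genes (black bars). The bars of MCL1 (-0.25) and BCL2 (-0.41) lie farthest below 0, and BCL2A1, drawn as an open-ended lower bound at 2.12, is far from its bar (0.01).

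The wider pathway was described by 10 lists of 78 genes, 72 of which had a probe set with 1 gene symbol. The floor was reached by 37, of which 14 were higher in CD2-positive cells, 22 lower and 1 equal, while 55.7% of all genes compared were lower. With the hybridisation controls as centre 23 were higher and 14 lower, while 69.2% of all genes compared were higher. Their median of -0.07 turns to 0.12 in the same way. Past 2-fold, 0 of the 37 were higher and 2 lower, against 1.21% and 0.758% of all genes compared. These were PMAIP1 and ATF3. Both reach the floor on the CD2-negative array alone, the one on which they read higher. PMAIP1 encodes NOXA, the BH3-only protein that binds MCL1 and A1. It read 31 in CD2-positive and 83 in CD2-negative cells on one probe set (-1.42), and 17 in CD2-positive and 65 in CD2-negative cells on the other (-1.94). PMAIP1 is the compared gene nearest before BCL2 on chromosome 18, and so is counted among the neighbours of BCL2. Its own neighbours are almost the same genes, so their median of -0.41 is not a separate observation. The stress-induced transcription factor gene ATF3 read 50 in CD2-positive and 146 in CD2-negative cells (-1.55) on its brightest probe set. A dimmer one, below the floor, had 27 in CD2-positive and 52 in CD2-negative cells (-0.95, under 2-fold), and the last had 4 on both arrays. The neighbours of ATF3 on chromosome 1 had a median of -0.31. The count of 2 falls to 1 when each gene's probe sets are averaged and to 0 with plain probe set identifiers. Each of these settings compares 20 genes. Plain identifiers leave PMAIP1 without a probe set and ATF3 with only the one at 4 on both arrays. That count of 0 therefore says nothing about either gene.

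Upstream of the family, 6 transcription factor genes were compared. MITF, a master regulator of mast cells and melanocytes known to drive BCL2A1 in melanoma cells, read 276 in CD2-positive and 154 in CD2-negative cells (0.84). Its other probe set above the floor had 218 in CD2-positive and 121 in CD2-negative cells (0.85), and centring on the hybridisation controls takes the first past 2-fold (1.02). The neighbours of MITF on chromosome 3 had a median of -0.01, with 11 negative and 9 positive. The NF-kB subunit genes NFKB1 and RELA had 104 and 121 in CD2-positive cells, against 120 and 142 in CD2-negative cells. STAT5B, which encodes a factor that KIT signalling activates, had 86 in CD2-positive and 67 in CD2-negative cells (0.36).

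Among 7 kinase, phosphatase and 14-3-3 genes whose products act on BAD, 4 were higher in CD2-positive cells, 2 lower and 1 equal, and all 7 were higher with the hybridisation controls as centre, as were 69.2% of all genes compared. The 14-3-3 gene YWHAQ was farthest from 0, at 709 in CD2-positive and 438 in CD2-negative cells (0.69) on its brightest probe set. Its other probe sets had 570 and 522 in CD2-positive cells, against 312 and 268 in CD2-negative cells (0.87 and 0.96). All 20 of its neighbours on chromosome 2 were positive, with a median of 0.32. PIM1, a kinase gene downstream of STAT5 whose product phosphorylates BAD, had 90 in CD2-positive and 67 in CD2-negative cells (0.43).

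Of the genes that act on MCL1 protein, HUWE1 encodes the ubiquitin ligase that marks MCL1 for breakdown. Its brightest probe set read 1303 in CD2-positive and 1678 in CD2-negative cells (-0.36). The next HUWE1 probe set, which also reached the floor, had 55 in CD2-positive and 67 in CD2-negative cells (-0.28). The rest had 7 or less on each array. USP9X, which removes ubiquitin from MCL1, had 159 in CD2-positive and 202 in CD2-negative cells (-0.35). The neighbours of HUWE1 on chromosome X had a median of -0.26. GSK3B, a kinase that marks MCL1 for breakdown, had 153 in CD2-positive and 147 in CD2-negative cells (0.06) on its brightest probe set. Its other probe set above the floor went the other way (-0.26). FOXO3, a transcription factor gene whose product can induce BIM, had 165 in CD2-positive and 188 in CD2-negative cells (-0.19), or -0.01 with the hybridisation controls as centre. The neighbours of FOXO3 on chromosome 6 had a median of -0.15, with 13 negative and 6 positive. DYNLL1, a dynein light chain that binds BIM, had 712 in CD2-positive and 763 in CD2-negative cells.

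Downstream of the mitochondria, 4 apoptosome and caspase genes were compared and 3 were lower in CD2-positive cells, or 2 with the hybridisation controls as centre. Of all genes compared, 55.7% were lower, or 30.8% with these controls as centre. CASP8, the initiator caspase gene whose product cleaves BID, had 60 in CD2-positive and 87 in CD2-negative cells (-0.54), and CASP9, the caspase of the apoptosome, had 58 in CD2-positive and 72 in CD2-negative cells (-0.31). The neighbours of CASP8 on chromosome 2 had a median of -0.01, with 10 negative and 10 positive. The cytochrome c gene CYCS had 605 in CD2-positive and 684 in CD2-negative cells, and its -0.18 is 0.01 with the hybridisation controls as centre. Of 6 genes of released mitochondrial proteins and channels, AIFM1, which encodes apoptosis-inducing factor, was farthest from 0, at 62 in CD2-positive and 87 in CD2-negative cells (-0.49). DIABLO, which encodes an antagonist of the inhibitors of apoptosis, had 63 in CD2-positive and 82 in CD2-negative cells (-0.38), and HTRA2, another such antagonist, 72 in CD2-positive and 52 in CD2-negative cells (0.47).

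XIAP, which encodes a direct caspase inhibitor, had 143 in CD2-positive and 188 in CD2-negative cells, and the differences of its 5 probe sets above the floor ran from -0.56 to -0.33. XIAP and AIFM1 lie on chromosome X, where their neighbours had medians of -0.56 and -0.53. No further anti-apoptotic family gene reached the floor, and BCL2L2, which encodes BCL-W, had 45 in CD2-positive and 39 in CD2-negative cells. Of the other BH3-only and related genes, 6 were compared and 4 were higher in CD2-positive cells, against 41.9% of all genes compared. With the hybridisation controls as centre the count was again 4, against 69.2%. BNIP3, a hypoxia-induced mitophagy gene, led the higher ones at 76 in CD2-positive and 52 in CD2-negative cells (0.55).

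**Figure D4:**
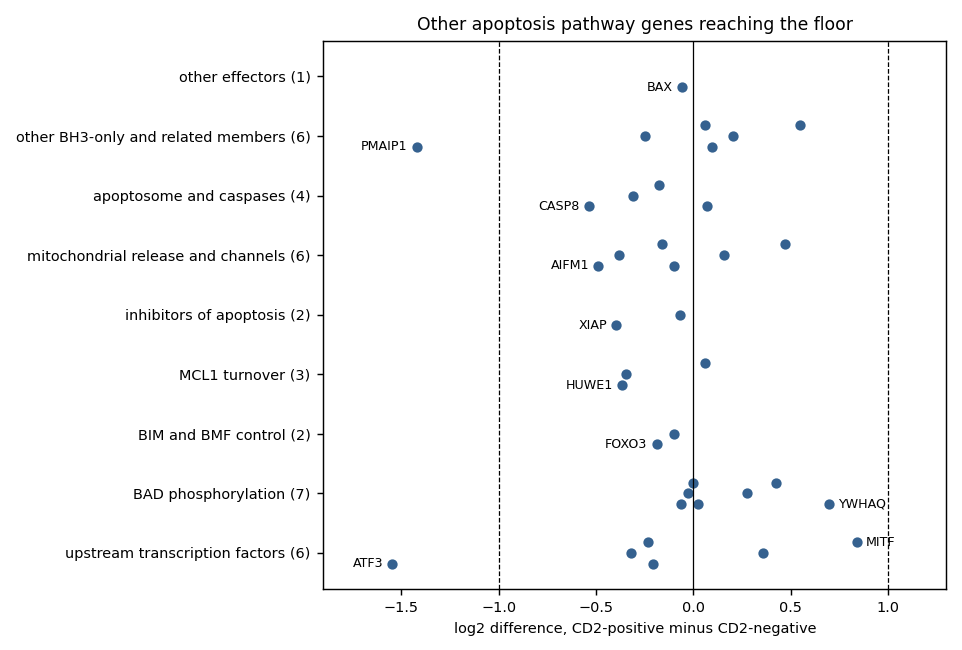
Log2 difference, CD2-positive minus CD2-negative, of the 37 pathway genes reaching the floor, by list with the number of genes in parentheses and dashed lines at 2-fold. The gene farthest from 0 in each list and MITF are named, and PMAIP1 (-1.42) and ATF3 (-1.55) lie beyond the dashed lines.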

How the data were processed

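Per the submitters' processing notes, the deposited intensity values were made by the authors with RMA in Affymetrix Expression Console 1.1. They are whole numbers on a linear scale. No source used here gives the background model or the rounding, and both weigh most on low values. RMA includes quantile normalisation, which removes differences in total signal. Values were converted to log2 with Python 3.11.15, pandas 2.3.3 and numpy 2.4.6. Probe sets were named by the platform annotation, with symbols updated through RefSeq identifiers, and the probe set brightest on average stood for its gene. Genes reaching log2 6 (64) on at least 1 array were compared, and counted at 2-fold. Gene order came from the RefSeq table of GCF_000001405.40. The members and lists were chosen with earlier results of these data known. Named were all members, list genes past 2-fold, the one farthest from 0 in each list, PMAIP1, BAX and the label checks. Further list genes were picked as examples with their values in view. BBC3 has only a probe set with several symbols, and it and 5 further list genes were not analysed here. The size rule was tested on simulated data. Alternatives were other floors, size rules, probe set choices and centrings, and a lowess correction (span 0.3, statsmodels 0.14.6).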

Additional observations from a re-analysis of the deposited data

How the results depend on the processing

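With 1 array per subclone no setting carries a test. The count of members past the size rule, 0 of 3 compared, was 1 of 10 with no floor and 1 of 7 at a floor of log2 4, which was added after seeing the data. In both cases the gene was BCL2A1, higher in the CD2-positive subclone. The members' median of -0.10 was -0.36 at a floor of log2 7, where MCL1 alone is compared, and 0.084 when centred on the hybridisation controls. With the mean of all probe sets no member reached the floor, so that setting gives no value for the members. The count of pathway genes past the size rule, 2 of 37, was 4 at 1.5-fold and 0 at 3-fold. It was 1 of 23 at a floor of log2 7 and 1 of 20 with the mean of all probe sets. With plain probe set identifiers it was 0 of 20, and neither PMAIP1 nor ATF3 was compared there. Centred on the hybridisation controls it was 3, with MITF higher and PMAIP1 and ATF3 lower. MCL1 kept a negative difference under all 3 settings that compare it otherwise, from -0.32 to -0.17. No paired analysis was possible because each subclone has 1 array. Low signal limits BCL2, BCL2A1, BAK1, BIK and BAD, whose values of 20 or less are coarse after rounding.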

Other observations

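Outside the BCL2 family, 3 further genes below the floor were named after their values were seen. They were picked for size: with BCL2A1, they have the largest differences on the higher side among the 4618 genes whose higher array lay from 16 to under 64. Each reaches 16 on the CD2-positive array alone. MYO10, an unconventional myosin gene of filopodia, read 63 in CD2-positive and 9 in CD2-negative cells. The endogenous retroviral envelope gene ERVFRD-1 had 30 in CD2-positive and 5 in CD2-negative cells. FCMR, which encodes the Fc receptor for IgM and was earlier named as an inhibitor of Fas-induced apoptosis, had 30 in CD2-positive and 5 in CD2-negative cells.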
